A study of Mus musculus with 48 samples.

Results

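Krüppel-like factors (KLFs) were followed through adipogenesis of 3T3-L1 cells, an established mouse fibroblast-like preadipocyte line, in which PPARγ had been lowered by siRNA. The members were the KLFs with a known role in fat cell formation: KLF2, KLF3, KLF4, KLF5, KLF6, KLF7, KLF9 and KLF15. All probes that carried one of these 8 gene symbols on the array were taken, whatever their values, which gave 10 of 24613 probes and 7 of 18991 gene symbols. KLF4 was measured by 3 probes, KLF6 by 2 and each of KLF2, KLF5, KLF7, KLF9 and KLF15 by 1, whereas no probe carried the symbol KLF3, so KLF3 has no value here. Where a gene had several probes, the probe with the highest mean signal is described first.

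The series held 48 Illumina mouse expression arrays. Cells received 50 nM of either a pool of siRNAs against PPARγ (PPARγ KD) or a pool of non-targeting siRNAs (control siRNA) before differentiation. RNA was taken at day -2 and then daily between days 0 and 6, with 3 biological replicates for each siRNA and day. Days are counted from the addition of rosiglitazone: confluent cells had 48 h of 0.5 mM isobutylmethylxanthine (IBMX, which raises cAMP) with 0.25 µM dexamethasone (a glucocorticoid), followed by 48 h of insulin at 5 µg/ml with 1 µM rosiglitazone (a PPARγ agonist). Both siRNA groups received all of these agents, so every array after day -2 comes from hormone-treated cells, and the time course has no untreated counterpart. The cells are 1 line, no other line was tested, and the siRNA is transient. RNA came from whole cultures, so fewer cells of a type and less RNA per cell cannot be told apart in any value below.

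KLFs are zinc finger transcription factors that bind CACCC and GC boxes in promoters. In fat cell formation they act at successive points of a cascade in which C/EBPβ and C/EBPδ come first and PPARγ and C/EBPα follow, and PPARγ then drives the genes of the mature adipocyte. KLF4, KLF5, KLF6, KLF9 and KLF15 are known to promote this programme, whereas KLF2, KLF3 and KLF7 are known to hold it back.

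By its brightest probe, PPARγ itself was lower in the KD on every day, by differences of -2.63 to -1.93. The difference was -2.34 on the log2 scale over the 8 days (standard error, SE, 0.04, limma, adjusted p = 9.48e-34). Of 11 adipocyte marker probes 9 were lower in the KD, against 6.74% of all probes. Over the 11 the median measured difference was -1.72 against -0.03 over all probes. However, 6 of the 11 were above background on no KD array, which gives only an upper limit there. The KD time course passed for 6 of the 11 (limma F-test), against 16.5% of all probes, though PLIN was above background on no KD array. On day 6 the mean log2 signals of ADIPOQ and CFD were 12.45 and 12.98 in the KD, against 15.2 and 15.53 under control siRNA. Of 12 preadipocyte and fibroblast marker probes 7 were higher, against 6.37% of all probes, with a median of 0.35. Of 9 probes for macrophage and other blood cell markers 8 were not above background on any array (CD14 was, on 40 arrays), and none of the 4 endothelial probes was above background on any array. Between 33.4% and 40.4% of the probes of an array were above background (detection p under 0.01), and the arrays of replicate 3 stood apart, at 33.4% to 35.4% against 36.8% to 40.4% for replicates 1 and 2. Several KLF probes also read lower in replicate 3, by up to 1.81 log2 units in KLF4, so results that rest on it are given with and without that replicate. The signal is log2 of the background-corrected, scaled intensity. It has no common scale between probes, so levels are compared only within a probe. A difference passed the test where limma's p-value, Bonferroni-adjusted over all 24613 probes, was at most 0.05.

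Over the 8 days together 4 of the 10 KLF probes differed between the siRNAs, against 13.1% of all probes. The 3 higher ones (6.37% of all probes were higher) were the 3 probes of KLF4, and the lower one (6.74% were lower) was KLF15. The brightest KLF4 probe differed by 0.72 (SE 0.06, limma, adjusted p = 1.17e-09), with 0.50, 0.98 and 0.68 in replicates 1, 2 and 3. KLF15 differed by -1.08 (SE 0.09, adjusted p = 1.22e-09), with -1.26, -1.41 and -0.57, a mean that includes days on which no KD array was above background. Both SEs take the 8 days of a replicate as separate, so they do not allow for a siRNA difference that varies between replicates. The median difference over the 10 probes was 0.14 against -0.03 over all probes. Many of all probes were near background and could hardly pass, whereas each KLF probe was above background on at least 10 arrays. Shares over all probes are therefore a low yardstick for the KLFs throughout. In a fit of only the 10567 probes above background on at least 3 arrays, 3426 passed over the 8 days, 867 on day 1 and 2465 on day 2. On days 4 to 6, fitted on their own 18 arrays, only KLF15 of the 10 probes passed, against 5.31% of all probes (3.77% lower in the KD). Within single days, 9 of the 80 KLF comparisons passed, against 3.5% over all probes. These were 3 probes on day 1, when 2.91% of all probes passed and 1.42% were higher in the KD, and 3 on day 2, when 8.92% passed and 4.74% were higher. All 6 calls were of KLF2 or KLF4 and higher in the KD. KLF15 was lower in the KD on day 4 (2.40% of all probes passed, 2.13% lower), on day 5 (3.24%, 2.68% lower) and on day 6 (3.88%, 3.09% lower). None passed on day -2, 0 or 3, where the backgrounds were 0.861%, 3.03% and 2.76%. The siRNA difference itself moved between days 0 to 2 and days 4 to 6 in 4 probes (2 of KLF4, 1 of KLF2 and 1 of KLF15), all towards lower values in the KD, against 3.63% of all probes (2.82% in that direction).

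**Figure D1:**
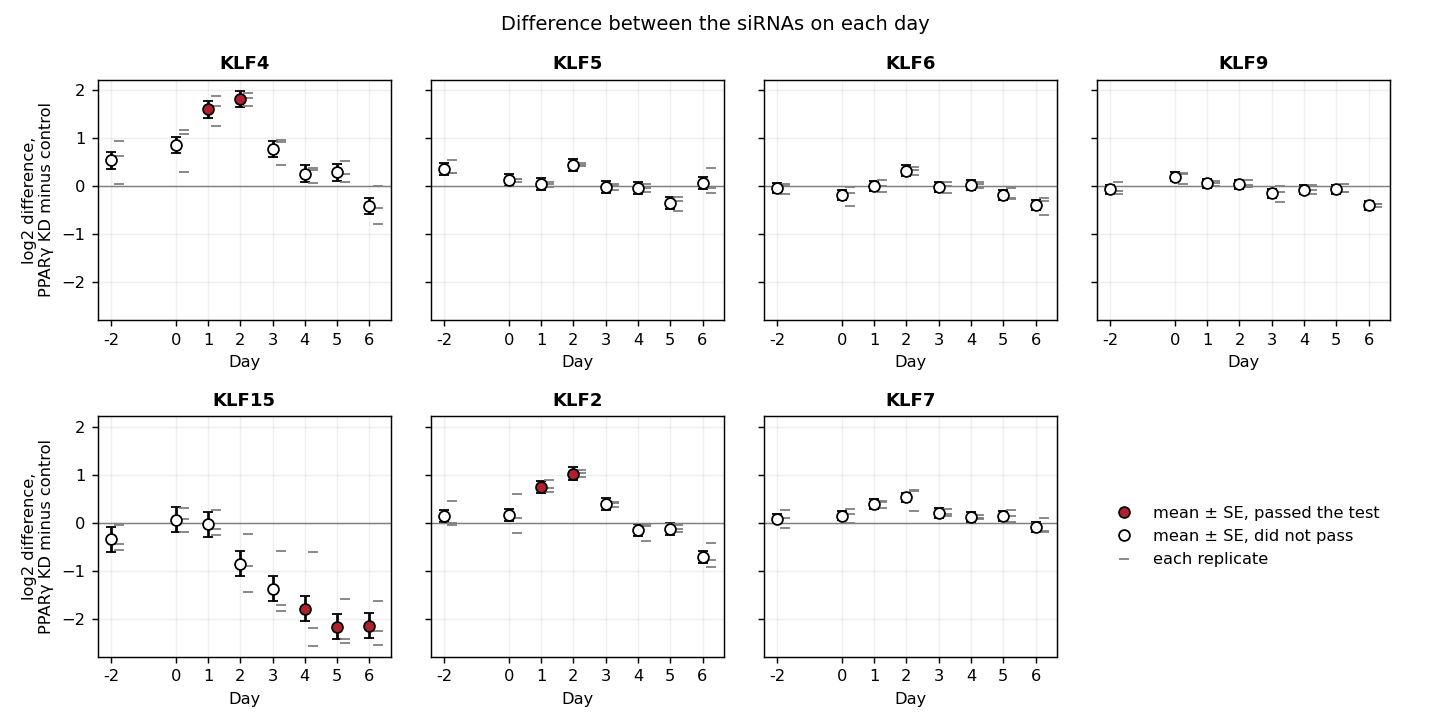
Difference between the siRNAs (log2, PPARγ KD minus control siRNA, y axis) on each day (x axis) for the brightest probe of each of the 7 measured KLFs. Points are means over 3 replicates with SE from limma, grey dashes are the replicates, and filled points passed the test: KLF4 and KLF2 on days 1 and 2 (above 0) and KLF15 on days 4, 5 and 6 (below 0).

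The promoters of the 3 genes whose siRNA difference passed on single days were read from 250 bases before to 50 bases after a RefSeq transcript start (mouse GRCm38.p6, 5′ to 3′ on the gene's strand). The RefSeq table of 32851 promoters held 7 of the 8 members, all but Klf5. Capitals mark CACCC boxes (CACCC or its reverse complement GGGTG) and GC boxes (GGGCGG or CCGCCC), the sites that KLFs themselves are known to bind. The Klf15 promoter lies at chr6:90462326-90462625 on the plus strand, that of Klf4 at chr4:55532426-55532725 on the minus strand, and that of Klf2 at chr8:72318812-72319111 on the plus strand.
Klf15: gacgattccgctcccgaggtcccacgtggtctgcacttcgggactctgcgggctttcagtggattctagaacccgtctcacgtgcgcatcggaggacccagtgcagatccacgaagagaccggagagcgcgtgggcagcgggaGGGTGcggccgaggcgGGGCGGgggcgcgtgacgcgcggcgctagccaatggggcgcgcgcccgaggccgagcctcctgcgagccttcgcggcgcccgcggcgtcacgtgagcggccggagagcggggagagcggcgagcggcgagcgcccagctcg
Klf4: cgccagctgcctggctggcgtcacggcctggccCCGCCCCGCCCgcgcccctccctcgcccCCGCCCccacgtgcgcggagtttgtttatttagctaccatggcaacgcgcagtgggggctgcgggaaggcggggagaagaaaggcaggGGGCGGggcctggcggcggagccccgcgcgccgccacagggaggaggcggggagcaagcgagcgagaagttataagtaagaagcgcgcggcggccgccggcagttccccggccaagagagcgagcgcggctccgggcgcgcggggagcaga
Klf2: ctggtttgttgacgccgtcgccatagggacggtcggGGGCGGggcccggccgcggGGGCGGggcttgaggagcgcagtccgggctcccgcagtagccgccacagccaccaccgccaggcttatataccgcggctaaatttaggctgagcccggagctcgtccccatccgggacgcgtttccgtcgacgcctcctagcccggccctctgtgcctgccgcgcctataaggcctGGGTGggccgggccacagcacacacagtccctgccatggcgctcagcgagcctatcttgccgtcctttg
All 3 are rich in G and C, at 73.3%, 74.3% and 69.3%, against a median of 52.7% over all promoters of the table. The Klf15 window holds 1 CACCC box and 1 GC box, the Klf4 window no CACCC box and 4 GC boxes, and the Klf2 window 1 CACCC box and 2 GC boxes. Over the table, 57.5% of promoters hold a CACCC box and 35.7% a GC box, on either strand. The letters TGACG, a half-site of the cAMP response element, occur 2 times in Klf15 and once each in Klf4 and Klf2, and in 20.8% of all promoters. None of the 7 members' windows holds the glucocorticoid response element (AGAACA and TGTTCT with 3 bases of any kind between them, in 0.00913% of all promoters). None holds the exact consensus direct repeat for PPARγ and RXR (AGGTCA repeated after 1 base of any kind, in 0.0396%) or the letters TATAAA (13.6%). Both elements, unlike TATAAA, are so rare in any promoter that their absence here carries no weight. The motif that the study derived from bound sites departs from that consensus repeat. All these matches describe the letters of the windows and were not tested as binding sites.

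KLF15, which promotes adipogenesis and raises the insulin-responsive glucose transporter GLUT4 (Slc2a4), climbed through the control time course and remained near background in the KD. Under control siRNA its log2 signals were 6.42, 6.31 and 6.01 on day -2 in replicates 1, 2 and 3, and 6.00, 5.66 and 6.07 on day 0, when none of the 3 arrays was above background. They reached 8.18, 8.08 and 6.84 by day 3, then 8.36, 8.44 and 7.06 by day 4. Day 5 gave 9.19, 9.10 and 7.97, and day 6 gave 9.16, 8.92 and 8.35. All 3 control arrays of days 4, 5 and 6 were above background, and replicate 3 was the lowest on each of these days.

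In the PPARγ KD the KLF15 probe was above background on only 6 of 24 arrays, against 17 of 24 under control siRNA. The KD signals of day 4 were 6.16, 5.87 and 6.45, none above background, those of day 5 were 6.77, 6.60 and 6.37, and those of day 6 were 6.91, 6.38 and 6.72. No KD array of these 3 days reached the lowest control array of the same day. The differences were -1.79 on day 4 (limma, adjusted p = 0.00103), -2.17 on day 5 (adjusted p = 1.27e-05) and -2.14 on day 6 (adjusted p = 1.73e-05), each with an SE of 0.26. As the KD arrays of day 4 give only an upper limit, the control was at least 2.69-fold higher that day. With the replicate number as a block within each day, day 4 was at an adjusted p of 0.0552.

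Over days 4 to 6 together the KLF15 difference was -2.03 (95% interval -2.36 to -1.71, limma, adjusted p = 6.54e-06), made up of -2.29, -2.53 and -1.28 in replicates 1, 2 and 3. Its size is not exact: no KD array of day 4, and only 2 of 3 on each of days 5 and 6, were above background. The 11 alternatives all passed but ranged from -2.41 to -1.37, beyond that interval. The interval also takes the 3 days of a replicate as separate, so it does not allow for a siRNA difference that varies between replicates. Without replicate 3 the difference was -2.41 (adjusted p = 8.94e-08), and without replicate 1 or 2 it was -1.91 or -1.78 and still passed. The single days were more fragile: without replicate 1 the adjusted p-values of days 4, 5 and 6 were 1, 0.356 and 0.273, and without replicate 2 they were 1, 0.0608 and 0.0954. On day 3 the difference of -1.38 did not pass (adjusted p = 0.143), though all 3 replicates were lower in the KD, and without replicate 3 it was -1.78 (adjusted p = 1.33e-05).

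On the early days no KLF15 difference passed. On day 0 all 6 arrays were below background, and on day 1 the difference was -0.03, with a sign that changed with the normalisation and with the replicate left out. On day 2 the control signals were 6.84, 7.37 and 6.58 and the KD signals 5.95, 5.93 and 6.35, the KD arrays all below background and below every control array. The control mean was 1.37-fold above the lowest signal above background. That is no strict lower limit, as only 2 of the 3 control arrays were above background. The measured difference of -0.85 did not pass (limma, adjusted p = 1) but did without replicate 3 (-1.17, adjusted p = 0.0113). The difference of days 4 to 6 minus that of days 0 to 2 was -1.76 (SE 0.21, limma, adjusted p = 1.42e-05), at an adjusted p of 0.397 without replicate 1 and of 0.0803 without replicate 2. Under control siRNA, KLF15 on day 6 was 2.57 log2 units above day -2 (adjusted p = 1.67e-07, background of probes changed between these days 6.24%) and at least 5.01-fold above day 0. The KD time course did not pass (adjusted p = 1). No KD array of day -2 was above background, and the day 6 KD mean was 1.14-fold above the lowest signal above background. That is no strict lower limit either, as only 2 of 3 KD arrays of day 6 were above background.

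**Figure D2:**
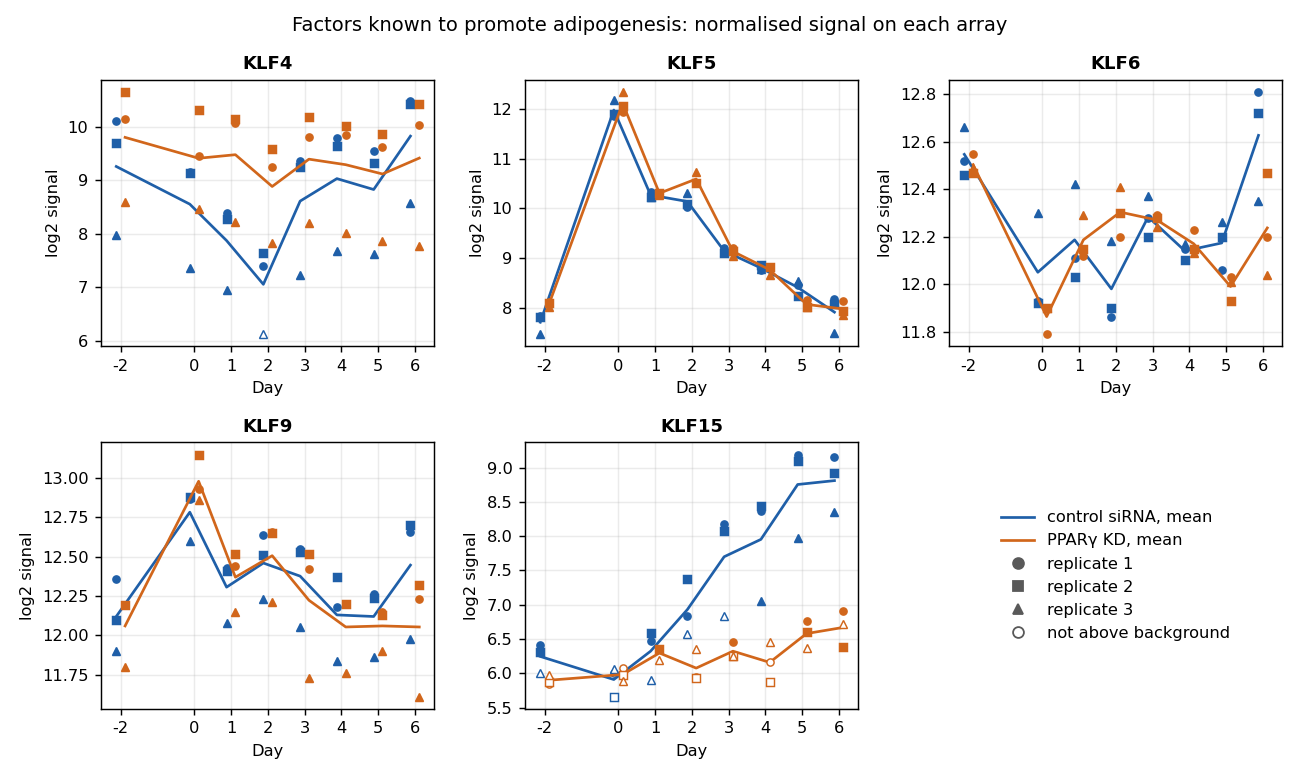
Log2 normalised signal (y axis) on each array by day (x axis) for the 5 measured KLFs known to promote adipogenesis, each by its brightest probe, with its own y scale. Lines join the means of 3 replicates, and open symbols are arrays on which the probe was not above background. KLF5 and KLF9 peaked on day 0 with both siRNAs, the KLF15 siRNA difference passed on days 4, 5 and 6, and control KLF4 was lowest on day 2.

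KLF4 is an early factor that activates Cebpb together with Krox20 (Egr2). Under control siRNA its brightest probe fell to a trough on day 2 and came back, whereas in the KD no change over time passed in that probe. The second probe fell in the KD as well, as given with the other probes. Day -2 gave control log2 signals of 10.10, 9.69 and 7.98 in its brightest probe, and day 0 gave 9.15, 9.14 and 7.37. The signals went down to 8.39, 8.27 and 6.96 by day 1 and to 7.40, 7.64 and 6.13 by day 2, the last of these not above background. By day 3 the signals were back at 9.35, 9.25 and 7.23, and day 6 gave 10.48, 10.42 and 8.57, above day -2 in each replicate. Replicate 3 was far below the others on this probe on every day, by 1.81 log2 units on average, so the siRNAs are compared within replicates.

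In the KD the signals of that KLF4 probe were 10.06, 10.15 and 8.22 on day 1 and 9.24, 9.59 and 7.82 on day 2, each above the control array of the same replicate and day. KLF4 was thus 3.04-fold higher in the KD on day 1 (log2 difference 1.61, limma, adjusted p = 8.43e-07) and 3.54-fold higher on day 2 (1.82, adjusted p = 2.69e-08). The day 2 differences of replicates 1, 2 and 3 were 1.83, 1.95 and 1.69. On day 0 the difference of 0.86 did not pass (adjusted p = 0.403), nor did that of 0.78 on day 3 (adjusted p = 1). On days 4 and 5 the differences were 0.26 and 0.29, and on day 6 the KD was lower by a difference of -0.41, none of which passed. The difference of days 4 to 6 minus that of days 0 to 2 was -1.38 (SE 0.14, adjusted p = 2.1e-07). Without replicate 3 the day 1 and day 2 differences were 1.78 and 1.89, and both passed.

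In its brightest probe, the control time course of KLF4 spanned 2.77 log2 units or 6.8-fold (limma F-test, adjusted p = 2.43e-12), whereas that of the KD spanned 0.92 or 1.89-fold and did not pass (adjusted p = 1). From day -2 to day 2 control KLF4 changed by -2.20 (adjusted p = 1.09e-10), then rose by 1.55 from day 2 to day 3 (adjusted p = 1.96e-06). The rise of 1.00 from day 5 to day 6 passed (adjusted p = 0.0332) but was lost under 7 of 10 alternative settings, each leave-one-out among them.

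The second KLF4 probe was also higher in the KD on days 1 and 2 (limma, adjusted p = 3.75e-06 and 0.0066), and over all days by a measured 0.56 (adjusted p = 2.44e-06). Its control signals of 6.07, 5.81 and 6.67 on day 1 were not above background, against 7.67, 7.49 and 8.02 in the KD, so the KD was at least 2.31-fold higher. On day 2 the control signals of 5.59, 5.39 and 6.03 were again not above background, against 6.49, 7.02 and 6.83 in the KD, which was at least 1.12-fold higher. Over time this probe changed in the KD too: its signal fell 2.7-fold from day -2 to day 2 (-1.43, adjusted p = 2.35e-05, 0.852 without replicate 1), against at least 1.84-fold under control siRNA. This probe had no offset in replicate 3 (0.05), unlike the brightest probe. Its day 2 call was lost without replicate 1 (adjusted p = 0.894) or replicate 2 (adjusted p = 1), and its call over all days without replicate 2 (adjusted p = 0.085). The third probe was above background on 10 of 48 arrays, and on days 1, 3 and 5 on none with either siRNA, so it gives no direction there. No control array was above background on days 0, 2 and 4 either, and no lower limit could be set for those days. Between the siRNAs it passed only over all days (0.53, adjusted p = 0.00126) and lost that call without replicate 1 (adjusted p = 0.841) or replicate 2 (adjusted p = 1). Over the 16 means of siRNA and day, Pearson's r was 0.969 and 0.807 between the brightest probe and the others, points that share arrays and days.

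**Figure D3:**
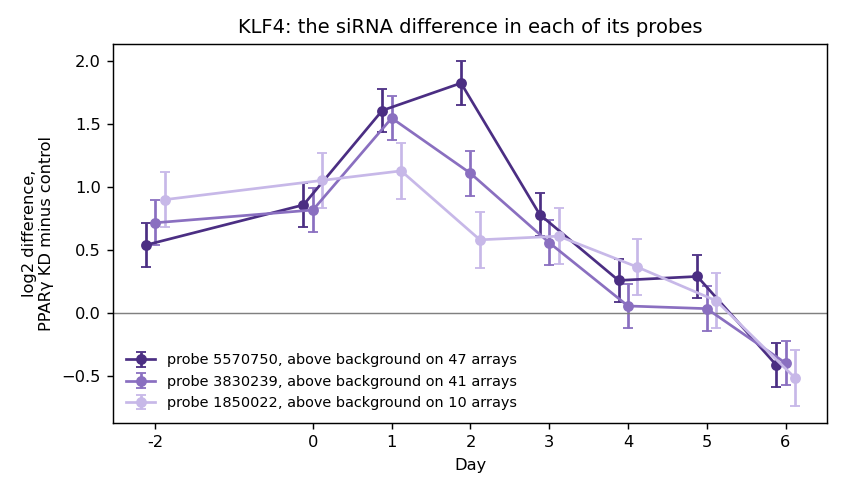
Difference between the siRNAs (log2, PPARγ KD minus control siRNA, y axis) by day (x axis) in each of the 3 KLF4 probes, as means over 3 replicates with SE from limma. The brightest probe was highest on day 2, at 1.82. Control arrays of the second probe on days 1 and 2, and all arrays of the third probe on days 1, 3 and 5, were below background, so those points have no exact size, and those of the third probe no direction. Control arrays of the third probe were also below background on days 0, 2 and 4, so those points have no exact size.

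KLF5, which C/EBPβ and C/EBPδ induce and which activates Pparg, had the largest swing over the days of the 7 KLFs, with either siRNA. Its control log2 signals were 7.83, 7.82 and 7.47 on day -2 and 11.86, 11.90 and 12.19 on day 0. In the KD they were 8.11, 8.10 and 8.02 on day -2 and 11.95, 12.06 and 12.35 on day 0. The groups of the 2 days lay far apart with either siRNA, and the rise after IBMX and dexamethasone was 19.4-fold under control siRNA (4.28, limma, adjusted p = 2.66e-25) and 16.5-fold in the KD (4.04, adjusted p = 2.02e-24).

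From day 0 on KLF5 fell back. The step to day 1 was -1.72 under control siRNA (adjusted p = 9.45e-12, limma) and -1.81 in the KD (adjusted p = 1.75e-12), and the step from day 2 to day 3 was -1.0 (adjusted p = 3.48e-05) and -1.46 (adjusted p = 1.29e-09). Of these 4 calls, the control step to day 3 alone was lost when a replicate was left out (adjusted p = 0.255 without replicate 2). By day 6 the control signals of 8.17, 8.08 and 7.48 and the KD signals of 8.13, 7.94 and 7.85 were close to those of day -2. Over the 8 days the siRNA difference was 0.08, with a 95% interval of -0.01 to 0.17. The largest single-day difference was 0.45 on day 2, in the same direction in 3 of 3 replicates, and did not pass (adjusted p = 1). The interaction of siRNA and day did not pass either (adjusted p = 1).

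KLF9, a glucocorticoid-responsive factor that acts at Pparg together with C/EBPα, also peaked on day 0, but by far less. Its control signals went from 12.36, 12.10 and 11.90 on day -2 to 12.87, 12.88 and 12.60 on day 0, a 1.59-fold rise (0.66, limma, adjusted p = 0.000733). The KD signals went from 12.19, 12.19 and 11.80 to 12.93, 13.15 and 12.86, a 1.89-fold rise (0.92, adjusted p = 2.92e-07), followed by a step of -0.61 to day 1 (adjusted p = 0.00453). Every replicate rose with both siRNAs. The control rise lost its call without replicate 1 (adjusted p = 0.302) or replicate 2 (adjusted p = 1), and the KD step to day 1 lost it without any 1 replicate. Over the 8 days the siRNA difference was -0.05 (95% interval -0.12 to 0.01). On day 6 it was -0.39, lower in the KD in 3 of 3 replicates, and did not pass (adjusted p = 1).

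KLF6, which represses the preadipocyte gene Dlk1, moved little over the days in its brighter probe. Its control signals were 12.52, 12.46 and 12.66 on day -2 and 12.81, 12.72 and 12.35 on day 6, and the day means spanned 0.65 log2 units under control siRNA and 0.64 in the KD. The control time course did not pass (limma F-test, adjusted p = 0.0738). It did pass under several alternatives, among them quantile normalisation (adjusted p = 0.0079) and without replicate 3 (adjusted p = 0.00313), but not without replicate 1 or replicate 2. In the KD the signals of 12.55, 12.47 and 12.49 on day -2 were followed by 11.79, 11.90 and 11.90 on day 0, a 1.56-fold fall (-0.64, adjusted p = 0.0286). That call was lost without replicate 1 or replicate 2 (adjusted p = 1). The corresponding control signals of day 0 were 11.93, 11.92 and 12.30. Over the 8 days the siRNA difference was -0.06 (95% interval -0.14 to 0.02), and the largest was -0.39 on day 6, which did not pass (adjusted p = 1). The dimmer KLF6 probe, above background on 37 arrays and lower in replicate 3 by 1.18 log2 units, passed no test over time or between siRNAs, and followed the brighter probe with r = 0.844 over the 16 means.

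KLF2, which represses Pparg and holds cells in the preadipocyte state, moved opposite to KLF5 at the start. Its control signals went from 10.40, 10.09 and 10.32 on day -2 to 7.42, 7.03 and 7.37 on day 0, a 7.97-fold fall (limma, adjusted p = 1.82e-19). In the KD they went from 10.39, 10.55 and 10.28 to 7.21, 7.63 and 7.49, a 7.81-fold fall (adjusted p = 2.55e-19). The siRNAs overlapped on both days, and their differences were 0.14 on day -2 and 0.17 on day 0, neither of which passed.

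The siRNAs separated as KLF2 came back. On day 1 the control signals were 8.34, 8.33 and 8.28 and the KD signals 8.98, 9.06 and 9.17. On day 2 they were 8.45, 8.50 and 8.38 under control siRNA and 9.48, 9.61 and 9.34 in the KD. On both days every KD array was above every control array. The difference was 0.75 on day 1 (limma, adjusted p = 0.0205) and 1.03 or 2.04-fold on day 2 (adjusted p = 2.58e-05). The day 1 call was lost under 6 of 11 alternatives, each leave-one-out among them (adjusted p = 0.934 to 1), and was at an adjusted p of 0.103 with the replicate number as a block within each day. The day 2 call held under all 11 alternatives, at 0.90 to 1.07.

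Control KLF2 caught up later. It rose by 1.04 from day 0 to day 1 (adjusted p = 2.01e-05, limma) and by 0.85 from day 2 to day 3 (adjusted p = 0.00193), whereas in the KD the step to day 1, of 1.63, was the only rise that passed (adjusted p = 9.68e-11). The control step to day 1 was lost without replicate 2 (adjusted p = 0.0905), and that to day 3 without any 1 replicate (adjusted p = 0.23 to 0.892). On day 6 the order of the siRNAs was turned round: the control signals were 10.39, 10.28 and 9.69 and the KD signals 9.62, 9.36 and 9.27, a difference of -0.71 that did not pass (adjusted p = 0.0672). Over all days the KLF2 difference was 0.19 and did not pass (adjusted p = 1). The difference of days 4 to 6 minus that of days 0 to 2 was -0.98 (SE 0.10, adjusted p = 5.86e-07) and passed under all 11 alternatives.

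KLF7, which also holds back adipogenesis, fell from day -2 to day 0 as KLF2 did, but by less, and under control siRNA was lowest on day 2, when KLF2 had already risen. Control signals of 10.38, 10.39 and 10.30 at day -2 were followed by 9.59, 9.57 and 9.46 at day 0 and 9.41, 9.26 and 9.13 at day 2. The step to day 0 was -0.82 under control siRNA (limma, adjusted p = 2.95e-05) and -0.75 in the KD (adjusted p = 0.000185), and both calls were lost without replicate 1 or replicate 2 (adjusted p = 0.146 to 1). From day -2 to day 2 control KLF7 fell 2.13-fold (-1.09, adjusted p = 1.48e-08, 13.9% of all probes changed), against 1.57-fold in the KD (-0.65, adjusted p = 0.00416, 2.77% of all probes). The control call held under all 10 alternatives, whereas the KD call was lost under 4, each leave-one-out among them (adjusted p = 0.0598 to 1). In the KD its day 2 signals were 10.07, 9.94 and 9.38, each above the control array of the same replicate, and the difference of 0.53 did not pass (adjusted p = 0.164). Over the 8 days KLF7 was higher in the KD by 0.20 in 3 of 3 replicates, which did not pass (adjusted p = 0.0843), though it did under 6 of the alternatives, without replicate 3 among them (0.23, adjusted p = 0.0107).

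**Figure D4:**
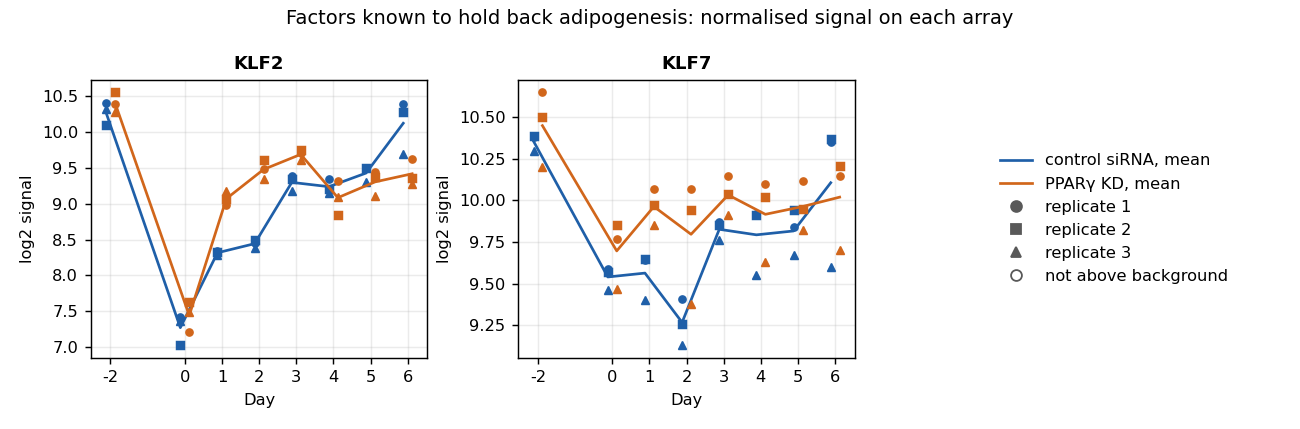
Log2 normalised signal (y axis) on each array by day (x axis) for KLF2 and KLF7, known to hold back adipogenesis, each with its own y scale. Lines join the means of 3 replicates. Both fell from day -2 to day 0 with both siRNAs, and on days 1 and 2 the KD arrays of KLF2 lay above all control arrays.

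Taken by step between neighbouring days, the step from day -2 to day 0, the 48 h of IBMX and dexamethasone, had calls in the most KLF genes with either siRNA. From day -2 to day 0, 4 of 10 KLF probes changed under control siRNA (KLF5 and KLF9 rose, KLF2 and KLF7 fell) against 9.06% of all probes, and 5 of 10 in the KD (KLF6 fell as well) against 7.39%. From day 0 to day 1 the control calls were KLF2, up, and KLF5, down (background 9.06%), with KLF9, down, as well in the KD (background 8.38%). From day 2 to day 3 KLF2 and both brighter KLF4 probes rose and KLF5 fell under control siRNA (background 8.45%), whereas KLF5 alone passed in the KD (background 1.90%). From day 5 to day 6 KLF4 rose under control siRNA (background 0.0691%). The other steps had no KLF call: those to days 2, 4 and 5 under control siRNA, with backgrounds of 3.41%, 0.934% and 0.163%, and those to days 2, 4, 5 and 6 in the KD, with backgrounds of 2.45%, 0.345%, 0.0609% and 0.0203%. Over the 7 steps 11 of 70 control comparisons and 9 of 70 KD comparisons passed, against 4.45% and 2.93% over all probes. A step that passed with 1 siRNA and not with the other is not thereby shown to differ between them.

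**Figure D5:**
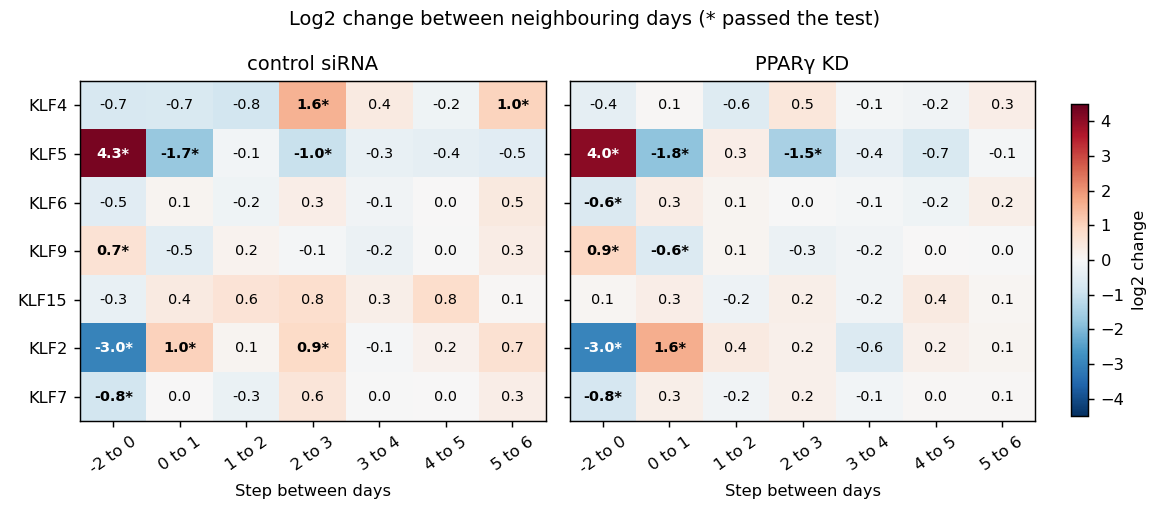
Log2 change from each day to the next (columns) in the brightest probe of each measured KLF (rows), under control siRNA (left) and in the PPARγ KD (right), coloured from blue (lower) to red (higher). Stars mark changes that passed the test, 10 in the left panel and 9 in the right. The first column holds the largest changes, with KLF5 at 4.3 and 4.0 and KLF2 at -3.0 in both.

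Ordered by level within a probe, the days formed different series. Control KLF5 ran from day 0 down through days 1, 2, 3, 4, 5 and 6 to day -2, and only days 1 and 2 and days 6 and -2 overlapped as neighbours once the mean offset of each replicate was removed. Control KLF15 ran from day 6 down through days 5, 4, 3 and 2 to days 1 and -2 and to day 0, which was below background, and the only neighbours whose arrays did not overlap were days 2 and 1. Control KLF2 ran from day -2 through days 6, 5, 3, 4, 2 and 1 to day 0, with overlap only between days -2 and 6 and between days 3 and 4. Control KLF4 was highest on day 6 and lowest on days 1 and 2, with days -2, 4, 5, 3 and 0 between them overlapping as neighbours. In the KD the KLF4 order was days -2, 1, 6, 0, 3, 4, 5 and 2, with overlap from day 1 through day 4.

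Over time as a whole, 8 of 10 KLF probes (6 of 7 genes, all but KLF6) changed under control siRNA, against 23.5% of all probes, and 5 of 10 (KLF2, KLF5, KLF7, KLF9 and the second KLF4 probe) in the KD, against 16.5%. The siRNA by day interaction passed for 4 probes (KLF2, 2 of KLF4, KLF15), against 7.11%. These shares of all probes again include many near background, which could hardly pass. For the control time course, the brighter KLF6 probe passed under several alternatives, without replicate 3 among them (limma F-test, adjusted p = 0.00313). The control call of KLF9 was lost without any 1 replicate and those of KLF7 and the third KLF4 probe without replicate 1 or 2. That KLF4 probe was above background on only 3 of 24 control arrays. In the KD the call of KLF7 was lost without any 1 replicate and that of the second KLF4 probe without replicate 1 or 2. Each of the 4 interactions was lost without at least 1 replicate, and that of KLF15 was at an adjusted p of 0.203 (limma) with the replicate number as a block within each day.

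The KLFs were also compared with one another and with all other genes by Pearson's r over the 16 means of siRNA and day, points that share arrays, hormones and days and so are not independent. KLF5 and KLF9 were the most alike (r = 0.869), and KLF2 ran against KLF5 (r = -0.867). KLF4 and KLF7 had an r of 0.825, KLF2 and KLF6 0.812, and KLF2 and KLF7 0.803. Among about 9216 probes above background on at least 24 arrays, those nearest to KLF5 were FKBP5 (0.958), TSC22D3 (0.954) and SAV1 (0.949). FKBP5 and TSC22D3 are well-known glucocorticoid-induced genes. Nearest to KLF9 were ERRFI1 (0.938), MAP4K4 (0.937) and SLC25A17 (0.933), and nearest to KLF2 were EHBP1L1 (0.948), MBOAT1 (0.946) and ZFP467 (0.941). Nearest to KLF4 were PLK2 (0.925), LOC100045542 (0.912) and FBLN2 (0.91), and nearest to KLF7 were LOC676704 (0.951), NIBAN (0.928) and TADA3L (0.925). KLF6 had the weakest neighbours, PLEKHC1 (0.841), SEC16B (0.833) and LOC433749 (0.819). KLF15 was above background on 23 arrays and was not ranked.

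The genes around the KLFs in this cascade gave the setting. Of 14 probes for glucocorticoid-induced genes 11 rose from day -2 to day 0 with either siRNA. Over all probes 9.06% changed at this step under control siRNA and 7.39% in the KD, in either direction. The median control step of the 14 was 1.69 against 0.08 over all probes. Among them LCN2 rose by 4.65, FKBP5 by 3.51 and TSC22D3 by a measured 3.33 under control siRNA. TSC22D3 was above background on only 16 of 24 control arrays, with a day -2 control mean of 6.19, so its rise may have no exact size. Of 18 probes for cAMP-induced early genes 9 were never above background. At this step 3 of the 18 rose and 2 fell under control siRNA and 4 rose in the KD, against the same 9.06% and 7.39%. SNF1LK, a salt-inducible kinase, was up by 1.93 under control siRNA. C/EBPβ and C/EBPδ, which lie upstream of KLF5, rose by 1.31 and 1.32 under control siRNA (limma, adjusted p = 5.48e-15 and 1.33e-11) and by 1.60 and 1.09 in the KD, and neither differed between the siRNAs over the 8 days (adjusted p = 1 for both). Of the 22 probes of the cascade 3 were higher in the KD over all days and 5 lower, against 6.37% and 6.74% of all probes. The median of the 22 was -0.06.

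Single genes of the cascade, some of them known targets of KLFs, moved as follows. SLC2A4, a target of KLF15, and CEBPA, which KLF3 represses, were lower in the KD over the 8 days (limma, adjusted p = 3.71e-21 and 2.76e-26), and neither was above background on any of the 24 KD arrays. On day 6 the control was at least 7.14-fold higher for SLC2A4 and at least 2.21-fold higher for CEBPA. DLK1, which KLF6 represses, was higher in the KD by 0.43 (adjusted p = 1.25e-11), and GATA2 and GATA3, factors of the preadipocyte, by 0.57 (adjusted p = 1.21e-13) and 0.31 (adjusted p = 0.0121). RXRA, the partner of PPARγ, differed by -0.61, STAT5A by -0.57 and EBF1 by -0.28, all past the test. EGR2, the partner of KLF4 at Cebpb, was above background on 22 arrays and did not differ between the siRNAs (-0.30, adjusted p = 1).

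Other members of the wider KLF and SP family showed little. Of 17 genes, 16 had a probe, and 18 of their 23 probes were not above background on any array. None differed between the siRNAs over the 8 days in limma after adjustment, against 13.1% of all probes. KLF16 alone changed over the control time course (adjusted p = 8.64e-05), against 23.5% of all probes. KLF13 was above background on all 48 arrays and differed by 0.04 between the siRNAs (adjusted p = 1).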

How the data were processed

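Each array's deposited table gave, per bead type, the average intensity, the number of beads and a detection value. Per the file headers, the authors exported these intensities from BeadStudio 3.3.7 without normalisation, so they are linear signals. The detection fraction (0 to 1) deposited with them was near 1 for bright probes and was read as 1 minus the detection p-value. The deposited bead counts had a median of 35 per probe and array. The number of arrays limits the precision.

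Background was removed by normexp with the detection values (limma 3.58.1, R 4.3.3, offset 16). Intensities were then scaled to the rank-invariant probes between the 50th and 90th percentile (factors 0.73 to 1.58), after the study's stated rank-invariant normalisation, and log2-transformed. A linear model was fitted to all 24613 probes, with a mean for each of the 16 groups and a replicate block, since the study's methods removed batch. Days 4 to 6 had a fit of their own on 18 arrays. In both fits the days of a replicate count as separate once its mean offset is removed. SEs, intervals and p-values therefore do not allow for a siRNA difference that varies between replicates. P-values were Bonferroni-adjusted, and the limit was 0.05. Above background means a detection p under 0.01. A group below background on all arrays has only an upper limit, and folds against it are given as at least N-fold, set against the lowest signal above background. Where the brighter group also had an array below background, the fold is no strict limit.

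The sample titles number the replicates 1, 2 and 3, and the study calls them biological replicates. Samples of the 2 siRNAs with the same replicate number and day deviated together from their group means (r 0.544 to 0.914 over the 10567 probes above background on at least 3 arrays, 24 pairs; 0.0239 to 0.901 over all probes). These deviations still hold the replicate offsets that the block removes, so r is not a measure of pairing within a day. No 2 arrays were identical, and replicates of a group correlated at 0.929 to 0.968. On simulated data the fit recovered 46 of 50 probes changed by 1 log2 unit on day 2 and 5 of 50 changed by 0.5. The simulated noise was independent between arrays and had no background floor, so these rates need not hold for probes near background. The gene members, marker lists and tests were chosen with earlier results of these data known. Named genes were the members, the brightest PPARγ probe, up to 4 genes per list (the largest called values, with further ones chosen after their values were seen) and the 3 probes most like each member. Promoters came from RefSeq, GRCm38.p6. The build of the array's annotation is not given in the sources used here.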

Additional observations from a re-analysis of the deposited data

Results flagged for a closer look

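The siRNA difference of 3 KLF genes was not the same early and late, by a test of the change itself (mean difference of days 4 to 6 minus mean difference of days 0 to 2, limma, Bonferroni-adjusted over all probes). For KLF4 it changed by -1.38 in the brightest probe (adjusted p = 2.1e-07) and by -1.26 in the second probe (adjusted p = 4.1e-06), from higher in the KD towards no difference. Control arrays of the second probe on days 1 and 2 were all below background, so the value of that probe has no exact size. For KLF2 it changed by -0.98 (adjusted p = 5.86e-07), from higher in the KD on days 1 and 2 to no called difference on days 4 to 6. For KLF15 it changed by -1.76 (adjusted p = 1.42e-05), from no called difference to lower in the KD, with adjusted p-values of 0.397 without replicate 1 and 0.0803 without replicate 2. For KLF15 no array of day 0 and no KD array of days 2 and 4 was above background, so that change has no exact size. Across all probes the siRNA difference changed between early and late days in 3.63%. With 3 arrays per group, single arrays were not tested as outliers.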

How the results depend on the processing

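Of 788 recomputed values that had passed, 681 passed again, 107 kept their direction without passing and none reversed. The 11 alternatives for the PPARγ difference ranged from -2.38 to -2.12 and all passed. Leaving out one replicate in turn gave 2 to 5 KLF calls over all days, 4 to 11 on single days, 1 to 3 interactions, 5 to 8 control time courses, 3 to 4 KD time courses and 4 to 10 control steps. Without the replicate block the calls were 2 interactions, 5 control and 3 KD time courses, 7 control steps and 5 KD steps, and the brightest KLF4 probe lost its siRNA calls (adjusted p = 1). With the replicate number as a block within each day, the paired fit, there were 4 calls over all days, 7 on single days and 3 interactions. It ended the calls of KLF2 on day 1 and of KLF15 on day 4 and in the interaction, and no other siRNA call. With Benjamini-Hochberg adjustment the calls were 3 on days 4 to 6, 28 on single days, 8 late minus early, 9 interactions, 9 KD time courses, 27 control steps and 19 KD steps. Signs turned only among values that had not passed. Under quantile normalisation the KLF15 difference was -0.0307 on day 0 and 0.0667 on day 1. Without 1 replicate KLF15 ranged from -0.0526 to 0.2002 on day 0 and from -0.181 to 0.0799 on day 1, KLF2 from -0.0201 to 0.228 on day -2 and from -0.0451 to 0.355 on day 0, and KLF4 over days 4 to 6 from -0.0855 to 0.123. The cause was not tested. Quantile normalisation also moved the median of all probes on day 2 from -0.121 to -0.0015. The BeadChip of each array is not given in the sources used here, so BeadChip as a block was not run. Probes near background limit KLF15 in the KD and the third KLF4 probe.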
